A study of Mus musculus with 13 samples.

Results

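The S100 genes studied here are 10 rows of a table of RNA levels in mouse tongue epithelium, chosen by gene name: S100a8, S100a9, S100a7a, S100a3, S100a4, S100a6, S100a10, S100a11, S100a14 and S100a16. All 10 were found among the 24972 rows, and all 10 were among the 17449 genes that carried an adjusted p. The rule itself uses names, but the family was chosen with earlier results of these data known. Bulk polyA RNA was read from 6 tongue epithelium samples with Krt14-Cre(+) and the LSL-H3K36M allele, called H3K36M here, and from 7 with Krt14-Cre(-) and the same LSL-H3K36M allele, called control. H3K36M is a histone H3 in which methionine takes the place of the lysine called K36, so that this site cannot be methylated. Krt14-Cre drives recombination in cells of the basal layer of stratified epithelia, where keratin 14 is made, so the allele is switched on there and in the cells that descend from them. Because Cre was present in every H3K36M sample and in no control sample, an effect of Cre itself and one of the mutant histone cannot be told apart. Neither ages nor strains were in the labels used here, and the labels do not tie samples to named animals, so p-values measure the spread between these samples, which may be technical.

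S100 proteins are small calcium-binding proteins with paired EF-hand motifs, found only in vertebrates. Some act inside cells, where calcium binding lets them grip partner proteins such as annexins and myosin. Others are released from damaged or inflamed cells and act as alarmins, signals that alert innate immune cells. S100a8 and S100a9 form calprotectin, which binds zinc and manganese and so withholds these metals from microbes. Calprotectin is abundant in neutrophils and monocytes and is also made by keratinocytes during wounding and inflammation. In bulk RNA, more cells of a type and more RNA per cell cannot be told apart.

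The deposited values were group levels, fold changes and tests, so no value of a single sample is given. Keratins of tongue epithelium were abundant, with Krt13 at 941187 normalised counts in H3K36M and 1161189 in control and Krt4 at 679826 in H3K36M and 714848 in control, per the authors' deposited table. Krt14, the gene whose promoter drives Cre, had 37784 normalised counts in H3K36M and 69205 in control there. Its log2 fold change was −0.87, with adjusted p = 0.0292 by the authors' DESeq2. The mean library held 15769751 normalised counts, and the depth of single libraries is not known from the table.

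The calprotectin genes were the 2 members that rose, and their promoters are shown because both genes moved together while their neighbour S100a7a did not pass the test. The sequences are from RefSeq on GRCm38.p6, each running from 250 bases before to 50 bases after the annotated start, 5′ to 3′ on the strand of the gene. They span chr3:90668821-90669120 (plus strand) for S100a8, chr3:90695672-90695971 (minus strand) for S100a9 and chr3:90654052-90654351 (plus strand) for S100a7a. Capitals mark matches to 4 short motifs searched on both strands: the TATA box (TATAAA), C/EBP (TTNNGNAA), AP-1 (TGANTCA) and STAT (TTCNNNGAA).
S100a8: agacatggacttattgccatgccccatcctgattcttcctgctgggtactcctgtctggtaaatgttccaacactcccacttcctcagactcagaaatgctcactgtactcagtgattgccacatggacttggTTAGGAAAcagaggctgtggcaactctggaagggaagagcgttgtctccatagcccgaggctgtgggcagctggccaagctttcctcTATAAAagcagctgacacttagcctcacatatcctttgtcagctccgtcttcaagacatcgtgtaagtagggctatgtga
S100a9: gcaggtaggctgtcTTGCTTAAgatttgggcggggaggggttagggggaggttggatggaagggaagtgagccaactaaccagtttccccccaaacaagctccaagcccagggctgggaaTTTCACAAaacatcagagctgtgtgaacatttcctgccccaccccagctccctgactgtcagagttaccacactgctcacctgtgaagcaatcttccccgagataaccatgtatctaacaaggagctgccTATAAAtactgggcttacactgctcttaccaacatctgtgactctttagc
S100a7a: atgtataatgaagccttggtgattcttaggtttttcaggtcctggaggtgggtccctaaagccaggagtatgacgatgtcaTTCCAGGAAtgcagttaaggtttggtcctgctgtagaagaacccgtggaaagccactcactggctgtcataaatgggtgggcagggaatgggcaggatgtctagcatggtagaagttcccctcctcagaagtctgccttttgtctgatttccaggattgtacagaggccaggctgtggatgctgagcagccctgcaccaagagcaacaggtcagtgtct

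The S100a8 window held TATAAA at position −30 from the annotated start and 1 C/EBP match at position −117. In the S100a9 window TATAAA began at position 1, the first base of the annotated transcript, and C/EBP matches began at −236 and −130. The S100a7a window held a STAT match at −169 and no TATAAA or C/EBP match. Its RefSeq start lies inside the GENCODE gene, as do some of the other starts used, those of S100a8 and S100a3 among them. Of the 10 genes, 8 were found in the promoter table, and where a gene had several starts the first listed was taken. TATAAA occurred in 3 of these 8 (S100a4, S100a8 and S100a9), against 13.6% of all 32851 windows of this length. C/EBP matches occurred in 3 of 8 (S100a3, S100a8 and S100a9), against 40.7% of windows. The AP-1 motif was found in 1, S100a11, where it occurred at −136 and −38, against 7.81% of windows. STAT matches, found in S100a7a alone of the 8, occurred in 8.30% of windows. A match is a description of letters and not a site of binding.

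Calprotectin RNA was 14.4 (S100a8) and 16.9 (S100a9) times as high in H3K36M tongue epithelium as in control. S100a8, on chromosome 3 (90668978 to 90670035, GRCm38), had a level of 792 normalised counts in H3K36M and 54.8 in control in the authors' deposited table. In the authors' deposited table its log2 fold change was 3.85, the standard error (SE) was 0.82 and adjusted p = 0.000209 (DESeq2 by the authors, n = 6 and 7). That is a fold of 14.4, with a 95% interval from 4.77 to 43.7. S100a9, on chromosome 3 (90692632 to 90695721), had 911 normalised counts in H3K36M and 53.9 in control in the authors' deposited table. Its log2 fold change was 4.08 (SE 0.92) with adjusted p = 0.000692 by DESeq2 in the authors' deposited table, a fold of 16.9 with a 95% interval from 4.82 to 59.3. By p-value the pair ranked 193 and 251 among the tested genes.

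Both calls rest on how the spread between few samples is treated. With a t distribution of 11 degrees of freedom in place of the normal distribution for the authors' Wald statistic, adjusted p became 0.0562 for S100a8 and 0.0716 for S100a9, and neither passed. Across the alternatives the adjusted p ran from 5.29e-05 to 0.0562 for S100a8 and from 0.000219 to 0.0716 for S100a9.

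Among the 10 genes 2 were called, both higher, and 0 lower, against 3.43% of all 17449 tested genes called in either direction, 1.85% higher and 1.59% lower. The same 2 had an unadjusted p below 0.05, against 9.82% of tested genes. Of the 11075 tested genes whose mean reached 50 normalised counts, a level that all 10 S100 genes exceeded, 2.97% were called in either direction and 1.23% higher. Median log2 fold change was −0.22 over the 10 genes and 0.07 over all tested genes. Fold changes of the 10 genes lay in separate ranges, with the calprotectin pair at 3.85 and 4.08 and the other 8 between −0.58 and 0.19 in the authors' deposited table.

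**Figure D1:**
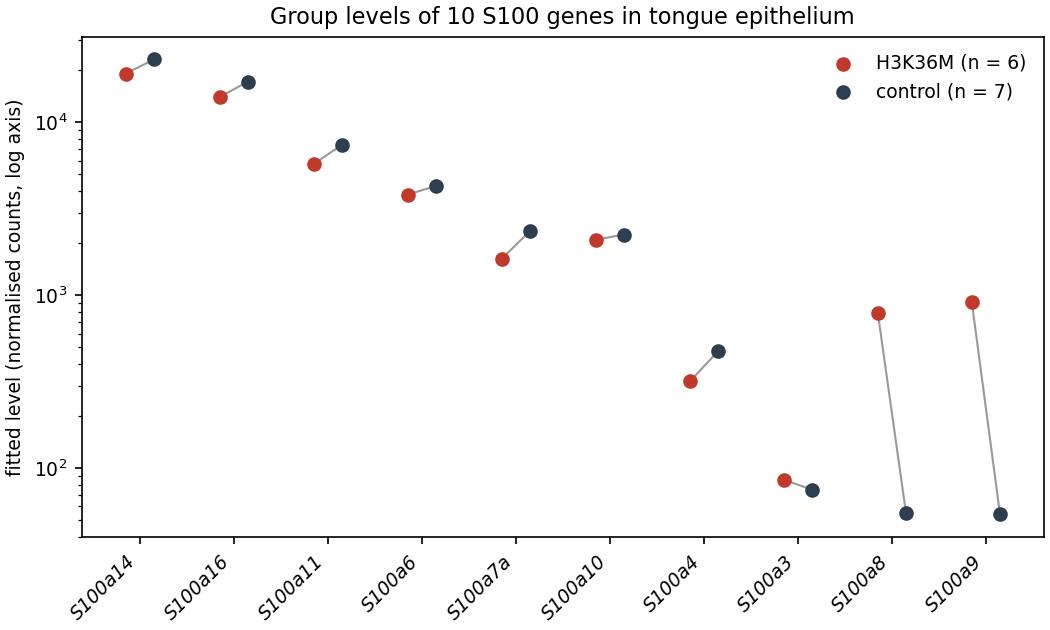
Fitted levels of the 10 S100 genes in normalised counts (log axis), with the H3K36M group (n = 6) to the left of the control group (n = 7) for each gene and a line joining the pair. S100a8 and S100a9 stand at 792 and 911 in H3K36M and at 54.8 and 53.9 in control, while the other 8 genes lie at similar heights in both groups.

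The ratio within the pair was near 1 in both groups. S100a9 stood at 1.15 times the S100a8 level in H3K36M and 0.983 times in control. Corrected for exon length, with 522 bases for S100a9 and 694 for S100a8, the ratios were 1.53 in H3K36M and 1.31 in control. This length joins all annotated exons of a gene and can exceed that of the transcript made, so these ratios depend on the annotation. Summed over the group's libraries, S100a8 had about 4750 normalised counts in H3K36M and 384 in control, and S100a9 about 5467 in H3K36M and 377 in control, so the counting error is small beside the spread between libraries.

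That spread was wide for the calprotectin pair. The coefficient of variation (CV) between libraries that would give the deposited SE under a negative binomial model was 1.01 for S100a8 and 1.15 for S100a9. Genes of like level, with a mean within a factor of 2, had a median CV of 0.395 around S100a8 and 0.387 around S100a9, and 92.5% and 96.0% of them had a lower CV than the gene itself. Which libraries were high cannot be read from group values. For the other 8 genes the CV ran from 0.255 (S100a14) to 0.523 (S100a4).

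**Figure D2:**
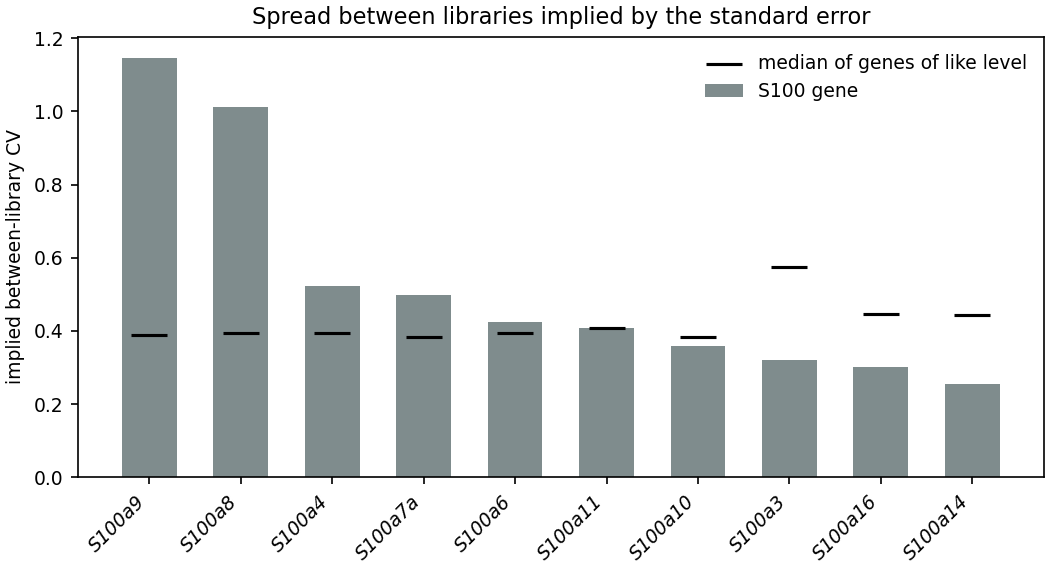
Bars give the between-library CV implied by the standard error for each of the 10 S100 genes, and black marks give the median CV of genes with a mean within a factor of 2. S100a9 (1.15) and S100a8 (1.01) stand above the marks near 0.387 and 0.395, while S100a14 (0.255) stands below its mark.

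S100a7a, the mouse relative of human psoriasin and koebnerisin and a secreted product of keratinocytes, did not pass. It lies 10.3 kilobases before S100a8 on the same strand, at 90654017 to 90658669. Its level was 1621 normalised counts in H3K36M and 2350 in control in the authors' deposited table. The log2 fold change was −0.54 (SE 0.40), with adjusted p = 0.874 by DESeq2 in the authors' deposited table. Its 95% interval of 0.40 to 1.19-fold does not reach the lower bounds of the calprotectin genes, though fold changes from the same samples are not independent and their difference was not tested.

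The intracellular members with annexin or myosin partners had intervals that included no change. S100a10, also called p11 and a partner of annexin A2 that needs no calcium, had 2093 normalised counts in H3K36M and 2243 in control in the authors' deposited table. Its log2 fold change was −0.10 (95% interval −0.67 to 0.47). S100a11, a keratinocyte S100 protein that binds annexin A1, had 5734 normalised counts in H3K36M and 7411 in control in the authors' deposited table, which is −0.37 on the log2 scale (interval −1.01 to 0.27). S100a6, known as calcyclin, had 3808 in H3K36M and 4294 in control in the authors' deposited table, with −0.17 (interval −0.84 to 0.49). S100a4, which binds non-muscle myosin and is known in fibroblasts and immune cells as well as epithelial tumours, had 317 in H3K36M and 473 in control in the authors' deposited table. Its log2 fold change of −0.58 (interval −1.40 to 0.25) was the lowest of the 10.

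S100a14 and S100a16, epithelial S100 proteins, supplied most of the family's reads. S100a14 had 19110 normalised counts in H3K36M and 23101 in control in the authors' deposited table, which is −0.27 on the log2 scale (95% interval −0.67 to 0.13). S100a16 had 13971 in H3K36M and 17231 in control there, with −0.30 (interval −0.77 to 0.17). Together they made up 68.3% of the summed level of the 10 genes in H3K36M and 70.4% in control. S100a14 had the narrowest interval of the 10, from 0.627 to 1.09-fold.

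S100a3, a cysteine-rich S100 protein known from the cuticle of hair, had the lowest mean of the 10 genes. It stood at 85.6 normalised counts in H3K36M and 75.0 in control in the authors' deposited table, which is 0.19 on the log2 scale (95% interval −0.34 to 0.72). Its annotated gene on chromosome 3 (90560578 to 90602702) encloses S100a2 on the same strand, so reads of the 2 genes may be hard to separate. By the authors' deposited table, 8 of 14 listed hard keratin and peptidylarginine deiminase genes were called lower, against 1.59% of all tested genes. The list had 0 called higher and a median of −1.61 on the log2 scale. All 8 called lower were hard keratins of hair or of the filiform papillae, while Krt32, Krt84, Krt85, Krt86, Padi1 and Padi3 did not pass. Krt36 had −1.65 (adjusted p = 1.61e-05), Krt83 −1.58, Krt35 −1.61 and Krt33b −2.45 in the authors' deposited table (DESeq2 by the authors).

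For the 8 S100 genes other than the calprotectin pair, adjusted p lay between 0.857 and 0.990 by the authors' DESeq2. On the log2 scale 7 of their fold changes were below 0 and 1 above, where 7570 of all 17449 tested genes lay below 0. At the smallest Wald statistic that passed in the whole table, 3.14, a change had to reach 1.56-fold for S100a14 and 2.50-fold for S100a4 to be called, and 5.88-fold for S100a8 and 7.44-fold for S100a9. Smaller changes were not detectable with this number of samples.

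**Figure D3:**
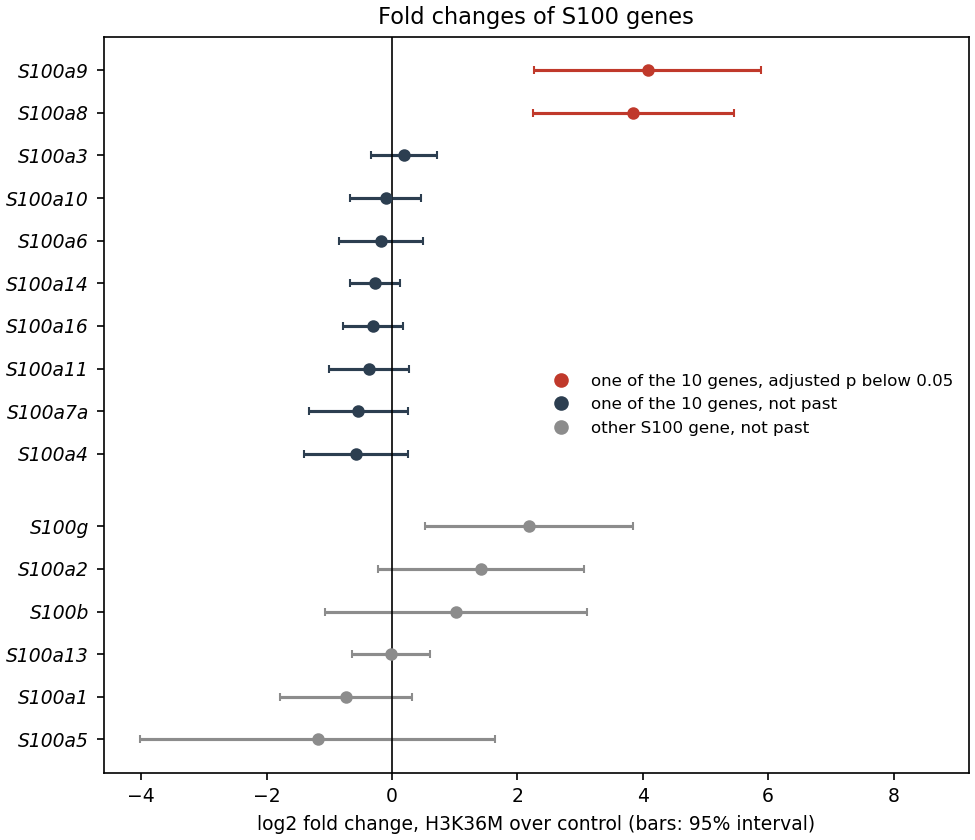
Points give the log2 fold change of H3K36M over control and bars the 95% interval, for the 10 S100 genes above and 6 other tested S100 genes below. Only the intervals of S100a9, S100a8 and S100g lie wholly above 0, and of these S100g did not pass the adjusted threshold.

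Summed over the 10 genes, the level was 48443 normalised counts in H3K36M and 57286 in control. S100a8 and S100a9 made up 3.52% of that sum in H3K36M and 0.190% in control. Per kilobase of annotated exon, the order of levels in H3K36M ran from S100a11 (11220 normalised counts per kilobase), S100a14 (11065) and S100a16 (8640) through S100a6 (2785), S100a9 (1745), S100a10 (1727), S100a7a (1177) and S100a8 (1141) to S100a4 (543) and S100a3 (15.1). In control the first 4 places were held by the same genes, from S100a11 at 14502 to S100a6 at 3141 normalised counts per kilobase, then came S100a10 (1851), S100a7a (1706) and S100a4 (810), and S100a9 (103) and S100a8 (79.0) stood just above S100a3 (13.2). S100a3 has an exon length of 5660 bases, which includes several alternative starts and lowers its level per kilobase. For every gene the length joins all annotated exons, so the order depends on the annotation. The table gives no error for a single group's level, so neighbours in this order, such as S100a9 and S100a10 (1727) in H3K36M, cannot be called different.

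Other S100 genes did not pass. Of 8 listed, 6 were tested, 1 had too few reads and 1 had none. By the authors' DESeq2 0 of the 6 were called, against 3.43% of all tested genes. Unadjusted p was below 0.05 for 1, against 9.82% of all tested genes. S100g, the calcium-binding protein calbindin-D9k of intestine, had 10.5 normalised counts in H3K36M and 2.30 in control in the authors' deposited table, which is 2.19 on the log2 scale with adjusted p = 0.181 by DESeq2. S100a1, best known from heart and skeletal muscle, had 474 in H3K36M and 786 in control in the authors' deposited table, with a log2 fold change of −0.73 (95% interval −1.78 to 0.32). Skeletal muscle markers had a summed level of 27221 normalised counts in H3K36M and 94261 in control over 11 genes, and their part in the S100a1 value was not tested. S100a13 stood at −0.02 (SE 0.32), S100a2 at 1.42 (SE 0.84), S100a5 at −1.18 (SE 1.45) and S100b, a glial and Schwann cell protein, at 1.02 (SE 1.06) in the authors' deposited table. S100z, with a mean of 0.163 normalised counts, had no adjusted p. The fused-type S100 genes, large structural proteins with an S100 domain at one end, had 6 tested genes in the authors' deposited table, 1 of them lower and 0 higher. Of these 6 tested genes, 3 had an unadjusted p below 0.05, against 9.82% of all tested genes. Below 0 lay 5 of the 6, where 7570 of all 17449 tested genes did. Tchh (trichohyalin) was the gene called, with 21703 normalised counts in H3K36M and 49886 in control, or −1.20 on the log2 scale, and adjusted p = 0.00476 in the authors' deposited table by DESeq2. Hrnr (hornerin), named after its values were seen, had 5233 normalised counts in H3K36M and 20415 in control in the authors' deposited table, which is −1.96 on the log2 scale with adjusted p = 0.0565 by DESeq2. Crnn (cornulin), also named after its values were seen, stood at −1.11 with adjusted p = 0.423 in the authors' deposited table (DESeq2).

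Of the 10 genes, 8 lie in a compact cluster on chromosome 3, and S100a11 and S100a10 lie at the far end of the epidermal differentiation complex. On GRCm38 the genes not yet placed are S100a14 (90526856 to 90528837), S100a16 (90537254 to 90543151), S100a4 (90603771 to 90606045), S100a6 (90612882 to 90624181), S100a11 (93520488 to 93526287) and S100a10 (93555080 to 93564643), all protein-coding and on the plus strand. S100a4 and S100a3 overlap the annotated gene Gm42674 on their own strand, so some of their reads may be shared with it. The cluster from S100a1 to S100a9 spans 0.18 megabases and held 12 tested genes, all of them S100 genes. In it 2 were called, namely S100a8 and S100a9, which are 22.6 kilobases apart on opposite strands. Across the whole 3.05 megabases from S100a1 to S100a10, 63 genes were tested, 7 higher and 1 lower, that is 12.7%, against 3.43% of all tested genes. Beside the calprotectin pair the higher ones were Sprr2d, Sprr2e, Sprr2f, Sprr2g and Sprr2i, cornified envelope genes that are close copies and can share reads, and the lower one was Tchh. In the authors' deposited table the log2 fold changes of these Sprr2 genes ran from 2.39 (Sprr2g) to 6.89 (Sprr2d). The other 49 genes of the span, Sprr2 genes included, had a median log2 fold change of −0.11.

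**Figure D4:**
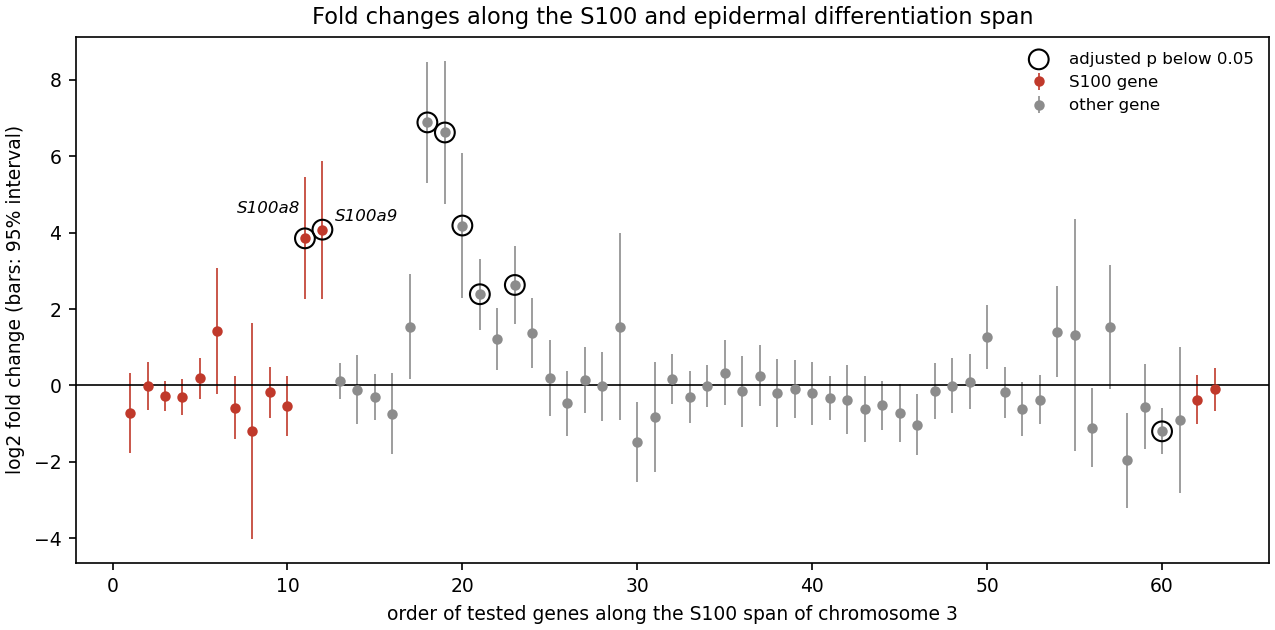
Log2 fold changes with 95% intervals for 63 tested genes in their order along chromosome 3 from S100a1 to S100a10, S100 genes in red and genes past the adjusted threshold circled. S100a8 and S100a9 (3.85 and 4.08) close the compact S100 cluster, and the circled grey points above 0 are the 5 Sprr2 genes.

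Receptors through which extracellular S100 proteins signal, listed together with adaptors such as Myd88, had no call. Of 8 tested 0 passed by DESeq2 in the authors' deposited table, against 3.43% of all tested genes. At that share a list this short would most often hold no call. Unadjusted p was below 0.05 for 1 of the 8, against 9.82% of all tested genes, and the median log2 fold change was 0.18. Their fold changes ran from −1.55 (Cd36) to 1.07 (Cd14) on the log2 scale in the authors' deposited table. Bsg (CD147, basigin) stood at 0.01 (SE 0.08) and Nptn (neuroplastin) at −0.18 (SE 0.28) in the authors' deposited table. Tlr4 and Ager, named for their roles after their values were seen, encode the best known receptors of calprotectin. Tlr4 had 579 normalised counts in H3K36M and 524 in control, and Ager 7.81 in H3K36M and 3.96 in control, in the authors' deposited table. Annexins and other S100 partners, a list that also holds the secreted proteases Plat and Plau and the surface receptor Plaur, had 0 called of 12 and 0 with an unadjusted p below 0.05 by the authors' DESeq2. Its log2 fold changes ran from −0.46 to 1.21, the highest being Plaur. Anxa2, the partner of S100a10, stood at 0.15 (SE 0.22), and Ahnak, a giant scaffold bound by that pair, at −0.25 (SE 0.27) in the authors' deposited table.

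Alarmins outside the S100 family had no call. Of 10 tested 0 passed, against 3.43% of all tested genes, so a list this short would most often hold no call. By the authors' DESeq2 2 of the 10 had an unadjusted p below 0.05, against 9.82% of all tested genes. The median log2 fold change was 0.10. Il33, an epithelial alarmin of the IL-1 family, had 4395 normalised counts in H3K36M and 1996 in control in the authors' deposited table, which is 1.14 on the log2 scale with adjusted p = 0.243 by DESeq2. Il1f6, which encodes IL-36 alpha, had 5205 in H3K36M and 4110 in control in the authors' deposited table, with a log2 fold change of 0.34 (SE 0.46). Tslp, an epithelial cytokine named after its values were seen, was the other gene with an unadjusted p below 0.05 and lay below 0, with 2.32 normalised counts in H3K36M and 6.47 in control in the authors' deposited table. Its log2 fold change was −1.48, with adjusted p = 0.274 by DESeq2 there. Antimicrobial and acute phase secretions had 1 higher and 0 lower of 9 tested, and 4 more had an outlier mark in the authors' deposited table and no p-value, a status called set aside here. Lcn2, which withholds iron from bacteria by binding siderophores, was that gene, with 157 normalised counts in H3K36M and 15.4 in control and adjusted p = 0.00239 in the authors' deposited table. Of the 9, 2 had an unadjusted p below 0.05, against 9.82% of all tested genes, and 5 lay above 0 and 4 below. Lyz1, the other of the 2, named after its values were seen, had 678 in H3K36M and 53.6 in control (adjusted p = 0.0780 by DESeq2). Set aside were Ltf, Lyz2, Reg3g and Saa3, all with higher fitted levels in H3K36M. Reg3g had 970 in H3K36M and 9.23e-06 in control, and Saa3 had 104 and 1.57.

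Genes of IL-17, IL-22, IL-36 and IL-1 signalling, pathways known to induce S100a8 and S100a9 in keratinocytes, numbered 19 among the tested genes of the authors' deposited table, with 1 called higher and 0 lower. Their median log2 fold change was 0.64, with 18 of 19 above 0, where 9879 of all 17449 tested genes lay above 0. Some had few reads, such as Il17a and Il17c with means of 4.66 and 3.01 normalised counts. The list also holds the cytokine genes Tnf, Il6 and Osm, with means of 4.33, 1.03 and 0.777. These 5 were named after their values were seen. Of the 19, 6 had an unadjusted p below 0.05, against 9.82% of all tested genes. Il23a, a subunit of IL-23, rose with a log2 fold change of 4.86 (SE 0.89, adjusted p = 7.91e-06) in the authors' deposited table, at levels of only 16.1 normalised counts in H3K36M and 0.555 in control. Il17f, named after its values were seen, had 4.28 normalised counts in H3K36M and 0.236 in control in the authors' deposited table and adjusted p = 0.0505 by DESeq2, just outside the threshold. The part of these signalling genes in the S100a8 and S100a9 values was not tested. Transcription factors of keratinocyte differentiation and stress had 0 called of 16 by the authors' DESeq2, against 3.43% of all tested genes. They had 1 unadjusted p below 0.05, with a median of 0.30. Klf4 stood at −0.06 (SE 0.25) and Trp63 at 0.02 (SE 0.30) in the authors' deposited table. The stress keratins, often raised together with S100a8 and S100a9 in wounded epidermis, had 0 called of 4 and 1 unadjusted p below 0.05. Krt16 had 51093 normalised counts in H3K36M and 85668 in control in the authors' deposited table, which is −0.75 on the log2 scale with adjusted p = 0.156 by DESeq2, and Krt6a stood at −0.41 (SE 0.23).

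**Figure D5:**
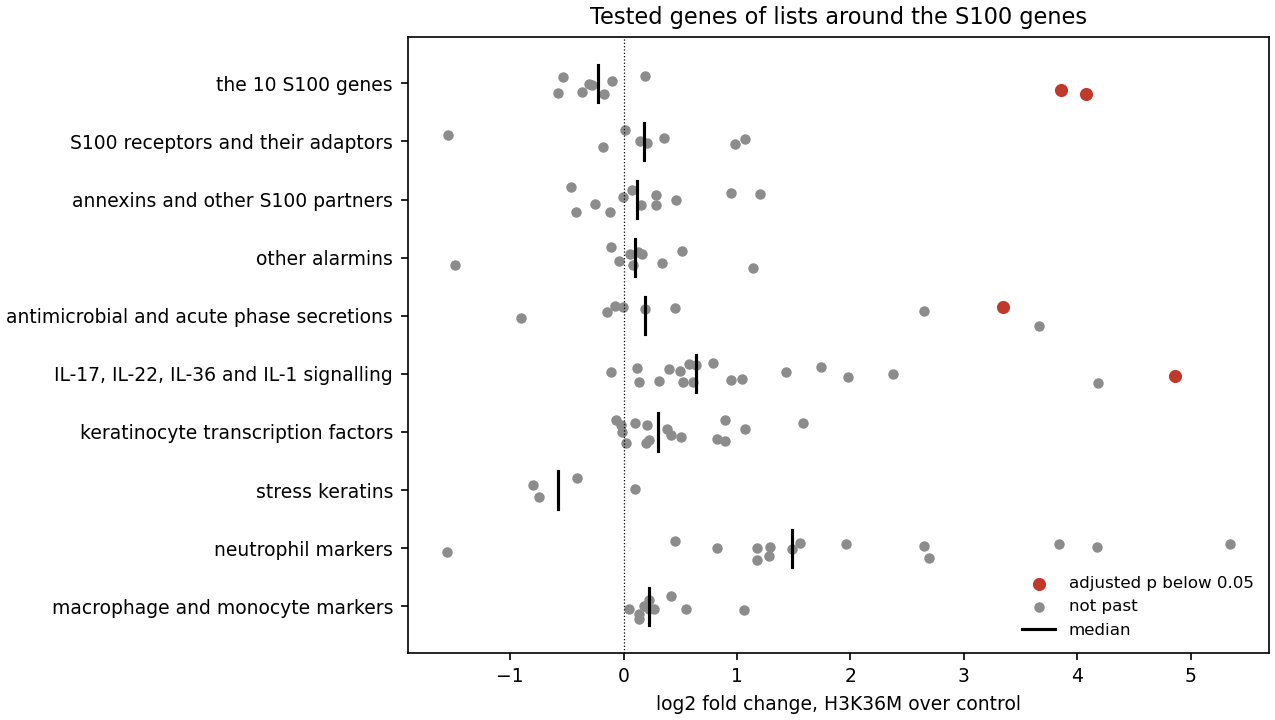
Log2 fold changes of H3K36M over control for the tested genes of each list, 1 point a gene, with red points past the adjusted threshold and black lines at list medians. S100a8 and S100a9 stand apart from the other 8 S100 genes. The medians of receptors with adaptors and of partners are 0.18 and 0.11, with single genes from −1.55 to 1.21. The neutrophil median is 1.49.

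Neutrophil markers had mostly positive fold changes and no call. Of 21 listed, S100a8 and S100a9 left out, 15 were tested, 5 had too few reads and 1 (Ltf) was set aside. Of these 15, 0 were called by DESeq2 in the authors' deposited table, against 3.43% of all tested genes. An unadjusted p below 0.05 was found for 6, against 9.82% of all tested genes. Above 0 lay 14 of the 15, where 9879 of all 17449 tested genes did, and the median was 1.49 on the log2 scale. The summed level of all 21 was 7228 normalised counts in H3K36M and 467 in control. Most of it was Ltf, lactoferrin, which glands also secrete, with 6440 in H3K36M and 59.5 in control in the authors' deposited table. Without Ltf the other 20 summed to 788 in H3K36M and 407 in control, of which Il1r2, a decoy receptor for IL-1, gave 544 in H3K36M and 308 in control.

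Levels of single neutrophil markers differed widely. Ly6g, Elane, Mpo, Prtn3 and Ctsg together held 2.06 normalised counts in H3K36M and 1.75 in control, and none of the 5 exceeded 1.03 in either group. Elane, Mpo, Prtn3 and Ctsg encode granule proteins made mainly by neutrophil precursors, so their RNA is low in mature cells as well. Ly6g, which is not one of these granule genes, had 0.175 normalised counts in H3K36M and 0.127 in control. Cxcr2, a chemokine receptor of mature neutrophils named after its values were seen, had 85.6 normalised counts in H3K36M and 29.1 in control in the authors' deposited table, with adjusted p = 0.0604 by DESeq2. Csf3r, from the same list and also named after its values were seen, had only 4.24 in H3K36M and 1.87 in control there, with adjusted p = 0.990 by DESeq2. The other markers with an unadjusted p below 0.05, beside Il1r2 and Cxcr2, were Ngp, Mmp8, Retnlg and Itgam, all above 0 and also named after their values were seen. Ngp and Mmp8, both granule protein genes, had 7.15 and 5.75 normalised counts in H3K36M, against 0.176 and 0.319 in control, in the authors' deposited table. Retnlg had 6.20 in H3K36M and 0.434 in control, and Itgam, the integrin subunit CD11b also carried by macrophages, had 84.7 in H3K36M and 37.5 in control there. Their adjusted p ran from 0.192 to 0.299 by the authors' DESeq2. The part of neutrophils in the S100a8 and S100a9 values was not tested.

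Macrophage and monocyte markers had 0 called of 10 tested and 0 with an unadjusted p below 0.05 by the authors' DESeq2. The shares over all tested genes were 3.43% and 9.82%. The median of this list was 0.23, and 10 of the 10 lay above 0, where 9879 of all 17449 tested genes did. Without Lyz2, which was set aside at 4878 normalised counts in H3K36M and 486 in control in the authors' deposited table, the other 10 summed to 898 in H3K36M and 788 in control. Cd68 stood at 0.18 (SE 0.25) in the authors' deposited table. Dendritic, T cell, fibroblast, endothelial and Schwann cell lists had no called gene by the authors' DESeq2, with 1 unadjusted p below 0.05 among dendritic genes and 0 in the other 4 lists. Genes of skeletal muscle had 0 called of 11 and 0 with an unadjusted p below 0.05 by the authors' DESeq2, with a median of −1.73. Of 4 tested melanocyte genes 1 was lower, Dct at −1.80 (SE 0.43, adjusted p = 0.00168), and of 8 tongue epithelium genes 2 were lower, Krt14 and Krt76, and 0 higher, by DESeq2 in the authors' deposited table. Among 8 salivary and ductal epithelium markers, the authors' deposited table called 7 higher and 0 lower, Krt19 among them with a log2 fold change of 3.47 (SE 0.39). Of all tested genes 1.85% were called higher and 1.59% lower. Krt7, like Krt19 a keratin of simple and ductal epithelia, stood at 2.71 (SE 0.48), Muc19, a gland mucin, at 8.12 (95% interval 5.17 to 11.06), and Pigr, the receptor that carries immunoglobulin A into secretions, at 7.01 (SE 1.40) in that table. Muc19 had 160 normalised counts in H3K36M and 0.576 in control, and Pigr 1247 in H3K36M and 9.70 in control, in the authors' deposited table. The list's summed level was 3073 normalised counts in H3K36M and 209 in control. The part of glandular cells in the S100a8 and S100a9 values was not tested.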

How the data were processed

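PolyA RNA from 13 tongue epithelium samples was read as 75-base single ends after a directional poly(A) kit, per the labels' protocols. STAR, DESeq2 and GRCm38 (mm10) are named in the submitters' processing notes, while the counting tool and annotation are not given in the sources used here. Group levels as normalised counts (a signal scale) stood in the authors' deposited table beside log2 fold changes of H3K36M over control with standard errors on the log2 scale, a Wald statistic (a score), p-values and adjusted p-values. The ratio of the 2 deposited levels equalled the fold change within 4.97e-14 on the log2 scale in every gene with reads, so the levels are fitted values.

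The main result was the authors' adjusted p below 0.05, because counts of single samples, which another test needs, were not in the files. Intervals (95%), folds, medians, list counts (21 lists) and implied CVs were computed from the table with Python 3.11.15, pandas 2.3.3, numpy 2.4.6 and scipy 1.17.1. The implied CV takes all size factors as 1. Scripts were tested on simulated data. Positions and exon lengths are from GENCODE M21, where 97.8% of symbols occurred once. Symbols absent from the table were looked up among RefSeq synonyms, and the filaggrin gene Flg was not analysed here. The 10 genes and the lists were chosen with earlier results of these data known. Named genes were the 10, other S100 genes with reads, the 4 smallest adjusted p of each list past the threshold or else its 2 highest means, and called neighbours on chromosome 3. Where a list has more called genes than named, the rest are in its count. Genes the rule selects from lists of other cell types with no call are given by their list's count, and 1 gene is not reported here. The deposited gene ontology tables name no genes and were not used.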

Additional observations from a re-analysis of the deposited data

How the results depend on the processing

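The count of S100 genes higher in H3K36M stayed at 2 and the count lower at 0 under 6 of 7 alternatives. Among the 6 were no filter on the mean, a mean of at least 50, adjusted p below 0.01 and a log2 fold change beyond 1. The rest were centring on the median of tested genes, and centring and scaling the Wald statistic. The stricter threshold and the fold change cut reuse the main adjusted p, so their outcome was fixed by the main values. Changing the filter on the mean only readjusts the same p-values. None of these settings tests how the spread between samples was modelled. With the t distribution of 11 degrees of freedom, the count higher was 0, with S100a8 at adjusted p = 0.0562 and S100a9 at 0.0716, and over all genes 105 were higher and 69 lower, against 322 and 277 by the authors' DESeq2. That alternative also widens the test for every other gene. Over all genes, centring gave 287 higher and 339 lower, centring with scaling 374 and 418, and a mean of at least 50 gave 129 and 186. The 8 other genes did not pass in any of their 56 values, some of which repeat the main adjusted p, and their lowest adjusted p was 0.566. Of the 7, only centring, and centring with scaling, can move a fold change. Centring lowers each log2 fold change by 0.07, less than the lowest positive value of the 10 genes, 0.19 for S100a3. The other setting lowers each Wald statistic by 0.16, where that of S100a3 was 0.70, and then divides it by 0.919. No sign could therefore change under either. The division raised the log2 fold change to 4.05 for S100a8 and 4.28 for S100a9. Leaving out single samples, another count test and another normalisation were not run, since they need counts of single samples. No paired analysis was possible because the columns carry no replicate numbers and no values of single samples. Precision is limited by the number of samples rather than by counting for the S100 genes, whose means lay between 79.9 and 21259 normalised counts.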
